A study of Mus musculus with 23 samples.

Results

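The genes described here are the odorant receptor genes of 3 clusters on mouse chromosome 11, chosen by symbol: Olfr311 to Olfr331, Olfr377 to Olfr412 and Olfr1372 to Olfr1396, with pseudogene symbols ending in -ps left out and with Olfr1377 and Olfr1395 left out. The rule gave 57 of the 1102 Olfr symbols without -ps, out of 23481 gene symbols in all, and used no measured value. All 57 lie on chromosome 11 in the GENCODE M21 annotation. RNA was pulled down from homogenates of olfactory epithelium with an antibody to phosphorylated ribosomal protein S6 (pS6), a mark that neurons gain when they are active, and was sequenced. The 23 libraries came from c57BL/6 mice at postnatal day 21. They fell into 100% acetophenone (litters 1 to 3), 1% acetophenone (litters 3 to 5) and the controls of that experiment (litters 1 to 5), and into 100% TMT, 1% TMT and controls (litters 1 to 4 each), with exposures of 1 h. The labels do not say what the control mice received, or how many mice went into a library. Acetophenone is an aromatic ketone used as a test odor, and TMT, not spelled out in the labels, is the usual short name of trimethylthiazoline, a fox odor component.

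Odorant receptors are G protein-coupled receptors on the cilia of olfactory neurons. Each mature neuron expresses a single receptor gene from a single allele, so in such a tissue the RNA of a receptor is carried by the few neurons that chose it. Receptor genes lie in clusters of tandem copies, with the coding region in a single exon. Receptors of chromosome 11 belong to class II, the larger class in mammals, and MOR names group them into families by sequence. In these pulldowns, fewer neurons of a type, less RNA per neuron and less pS6 in those neurons cannot be told apart.

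The 3 clusters differed in size and in their families. Positions are those of GRCm38 (mm10). The Olfr1372 to Olfr1396 set held 18 genes between positions 49109982 and 52145528 of chromosome 11. Of these, 16 lay on the plus strand, and 13 had MOR256 names. This set was not compact, with a widest gap of 1400.7 kb between neighbouring genes against a median gap of 9.2 kb. Olfr1378 (from position 50966530) and Olfr1373 (from 52144593) lay apart from the rest, which ended at 49565859. The word cluster here thus means a set of symbols. The set Olfr311 to Olfr331 was the most compact, with 17 genes between positions 58501598 and 58844111, and mixed 4 genes each of families MOR275 and MOR285 with 3 of MOR222 and pairs or single genes of 4 other families. The set Olfr377 to Olfr412 held 22 genes between positions 73424609 and 74366218, 14 of them on the minus strand, with 13 genes of MOR135 and 5 of MOR255. The coding sequence of each of the 57 lay in 1 exon and was 918 to 999 bases long, while the annotated transcripts, untranslated regions included, covered 936 to 5628 bases.

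Many of the genes have near copies close by, and reads that align to several places are left out of the main counts. Among 1405 annotated Olfr sequences, pseudogenes included, a copy that aligned over at least 80% of the coding sequence was found for 54 genes. For 53 of them the closest copy lay on chromosome 11, and for 9 it carried a pseudogene symbol. The median identity of the coding sequence to the closest copy was 92.4%. The next stretches of 120 coding bases show what such copies look like. The first set is printed because Olfr1383 shared nearly all of its reads with other places, and covers bases 34 to 153 of the Olfr1383 coding sequence. Capitals mark bases that differ from Olfr1383. Olfr1372-ps1 differed at 3 of these 120 bases and Olfr1384, the neighbouring gene, at 32.
Olfr1383, chr11:49523758-49523877, plus strand: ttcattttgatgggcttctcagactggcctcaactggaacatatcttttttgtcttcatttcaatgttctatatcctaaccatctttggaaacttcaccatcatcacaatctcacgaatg
Olfr1372-ps1, chr11:52156131-52156250, minus strand: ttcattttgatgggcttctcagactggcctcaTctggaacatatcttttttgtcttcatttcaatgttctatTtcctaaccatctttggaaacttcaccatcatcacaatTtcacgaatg
Olfr1384, chr11:49513670-49513789, plus strand: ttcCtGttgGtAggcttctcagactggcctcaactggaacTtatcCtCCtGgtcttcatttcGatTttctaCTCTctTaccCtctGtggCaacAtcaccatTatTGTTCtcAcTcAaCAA

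The second set covers the first 120 coding bases of a trio with few unique reads (1 unique count for Olfr1381, 22 for Olfr1380 and 0 for Olfr1373). Capitals mark bases that differ from Olfr1381. Olfr1380 differed at 4 bases and Olfr1373, which lies on the other strand at the far end of the same set of symbols, at 3.
Olfr1381, chr11:49551749-49551868, plus strand: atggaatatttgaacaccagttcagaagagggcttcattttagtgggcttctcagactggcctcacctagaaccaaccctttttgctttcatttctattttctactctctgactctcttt
Olfr1380, chr11:49563923-49564042, plus strand: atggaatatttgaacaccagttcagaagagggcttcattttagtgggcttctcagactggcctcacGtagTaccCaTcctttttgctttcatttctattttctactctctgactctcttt
Olfr1373, chr11:52145409-52145528, minus strand: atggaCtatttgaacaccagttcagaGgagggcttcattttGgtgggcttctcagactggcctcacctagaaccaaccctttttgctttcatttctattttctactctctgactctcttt

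The last sets hold the genes with the highest levels by unique counts, Olfr315 and Olfr397, each beside its closest copy. Capitals mark bases that differ from the first of each pair. Over bases 110 to 229 of Olfr315, its neighbour Olfr314 differed at 28. Over bases 13 to 132 of Olfr397, Olfr376, which lies just outside the numbered range, differed at 22.
Olfr315, chr11:58778238-58778357, plus strand: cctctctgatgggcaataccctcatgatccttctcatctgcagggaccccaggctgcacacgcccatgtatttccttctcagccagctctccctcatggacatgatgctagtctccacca
Olfr314, chr11:58786339-58786458, plus strand: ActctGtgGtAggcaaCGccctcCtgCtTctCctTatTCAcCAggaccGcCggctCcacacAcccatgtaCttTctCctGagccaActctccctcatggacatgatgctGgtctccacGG
Olfr397, chr11:73964622-73964741, plus strand: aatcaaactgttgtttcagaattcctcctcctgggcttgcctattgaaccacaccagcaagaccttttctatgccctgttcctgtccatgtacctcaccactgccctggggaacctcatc
Olfr376, chr11:73374772-73374891, plus strand: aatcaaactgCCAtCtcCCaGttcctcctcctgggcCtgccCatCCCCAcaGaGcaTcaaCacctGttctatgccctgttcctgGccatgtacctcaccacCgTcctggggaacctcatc

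The files hold counts of reads that align to a single place (unique counts) and estimated counts in which reads with several alignments are shared out between their places. Summed over the 57 genes, unique counts were 41.4% of estimated counts, against 65.0% for the other 1045 Olfr genes. Of the 24 genes whose closest copy was at least 95% identical, 23 had a unique share under 50%, with a median of 16.3% and a range of 0 to 56.8%. Genes with a closest copy of 90 to under 95% identity numbered 10, with a median unique share of 51.6%. The 20 genes whose closest copy was under 90% identical had a median of 84.4%, and 3 of these were under 50%. The 3 genes with no aligned copy, Olfr323, Olfr324 and Olfr398, had all of their estimated counts as unique counts. Over the 57 genes 30 were under 50%, and for these the unique counts used below describe a minor part of the reads.

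A count of 50-base windows of the coding sequence gave the same order by medians, though not gene by gene. The median unique share of counts was 6.1% for genes with under 50% of windows found in no other Olfr sequence (range 0 to 23.1%). It was 24.2% at 50 to under 90% of windows (0 to 56.8%) and 84.4% at 90% or more (24.6 to 100%). Olfr315 and Olfr397 had 100% of their windows in no other Olfr sequence, and the longest run shared with the closest copy was 23 bases for Olfr315 and 29 for Olfr397. Olfr1383 shared an unbroken run of 283 bases with Olfr1372-ps1, and 57.6% of its windows were unique. Its unique counts over all libraries came to 87, against 2903 estimated counts. Olfr1381 had 16.4% of its windows unique and a single unique count, and Olfr403, 98.7% identical to Olfr43, had 29.1% of windows unique and also 1 count. A run of 286 bases was shared by Olfr403 and Olfr43. The read length is not given in the sources used here, so 50 bases is only an example.

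**Figure D1:**
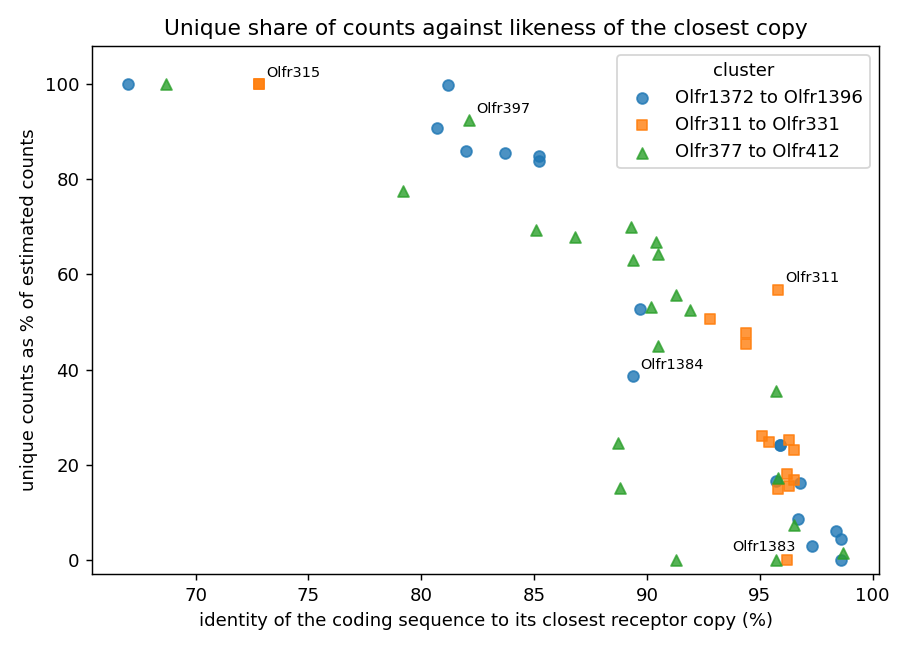
Each point is 1 of the 54 receptor genes with an aligned copy, with the identity of its coding sequence to the closest Olfr sequence (%) on the horizontal axis and its unique counts as a percent of its estimated counts over 23 libraries on the vertical axis. Marker shapes give the 3 clusters; Olfr315, with a closest copy at 72.8% identity, sits at 100%, while Olfr1383, at 97.3% identity, sits at 3.0%.

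The libraries held 2118099 to 9526932 unique counts, of which all Olfr genes took 0.0232 to 0.820%. The 57 genes together had 72 to 710 counts per library, and 10 to 38 of them had at least 1 count in a library. Libraries of acetophenone litters 2 and 3 were highest in Olfr genes (4330 to 7290 summed CPM, which are counts scaled to a library of 1000000) and lowest in Omp, a marker of mature olfactory neurons (112 to 267 CPM, against 872 to 1970 CPM in litters 1, 4 and 5). The part of this gap in the results was not tested. Prefixes of the library codes differ between some litters, so that litter and batch cannot be told apart. Defining markers of mature neurons were present in each group, with 10 of 10 detected. Summed levels of 10 sustentacular cell genes ranged from 11900 to 23400 CPM over all groups and those of 12 respiratory and secretory genes from 44300 to 149000 CPM.

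Levels were unequal among the 57 genes. Together they had 7522 unique counts in the 23 libraries. The genes made up 5.17% of Olfr symbols and took 4.12% of unique Olfr counts. Averaged over the 23 libraries their share was 5.02% with unique counts and 7.26% with estimated counts. Whether it lay below or above the share of symbols thus depended on the measure. Olfr315 alone held 18.1% of the 7522 counts, the highest 4 genes (Olfr315, Olfr397, Olfr1384 and Olfr1396) held 45.1%, and the highest 10 held 67.0%. Olfr1373, Olfr331, Olfr384 and Olfr402 had 0 unique counts in all libraries, which is 7.02% of the 57, against 5.84% of the other Olfr genes. Each of these 4 has a copy at least 91.3% identical. Olfr1373, Olfr331 and Olfr384 had 26.3, 76.9 and 34.5 estimated counts over all libraries, so a level cannot be read from their unique counts. Olfr402 had 1.0 estimated counts in all, so it was near 0 with shared reads included too. A further 13 genes had 1 to 9 counts in all.

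Per kb of annotated transcript, with unique counts averaged over all libraries, Olfr315 was highest at 5.14 CPM per kb. Olfr397 followed at 2.98 CPM per kb and Olfr1384 at 1.74. Olfr1396 (1.37 CPM per kb), Olfr1389 (1.32), Olfr378 (1.23), Olfr1386 (1.18) and Olfr390 (1.03) made up the rest of the first 8. The ranges over libraries of each neighbouring pair in that order overlapped. Per kb of coding sequence the first 5 were the same and in the same order, while Olfr378, with a short annotated transcript of 1508 bases, was ranked 13. Olfr1386 and Olfr1384 share reads with copies, with 24.2% and 38.6% of their estimated counts unique, and the rest of their reads is not in these levels. With estimated counts the order was another. Summed over all libraries, Olfr1383 (2902.7) and Olfr1384 (1681.3) stood above Olfr315 (1361), and Olfr1386 (1142.3) and Olfr330 (1117.9) above Olfr397 (984.5).

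**Figure D2:**
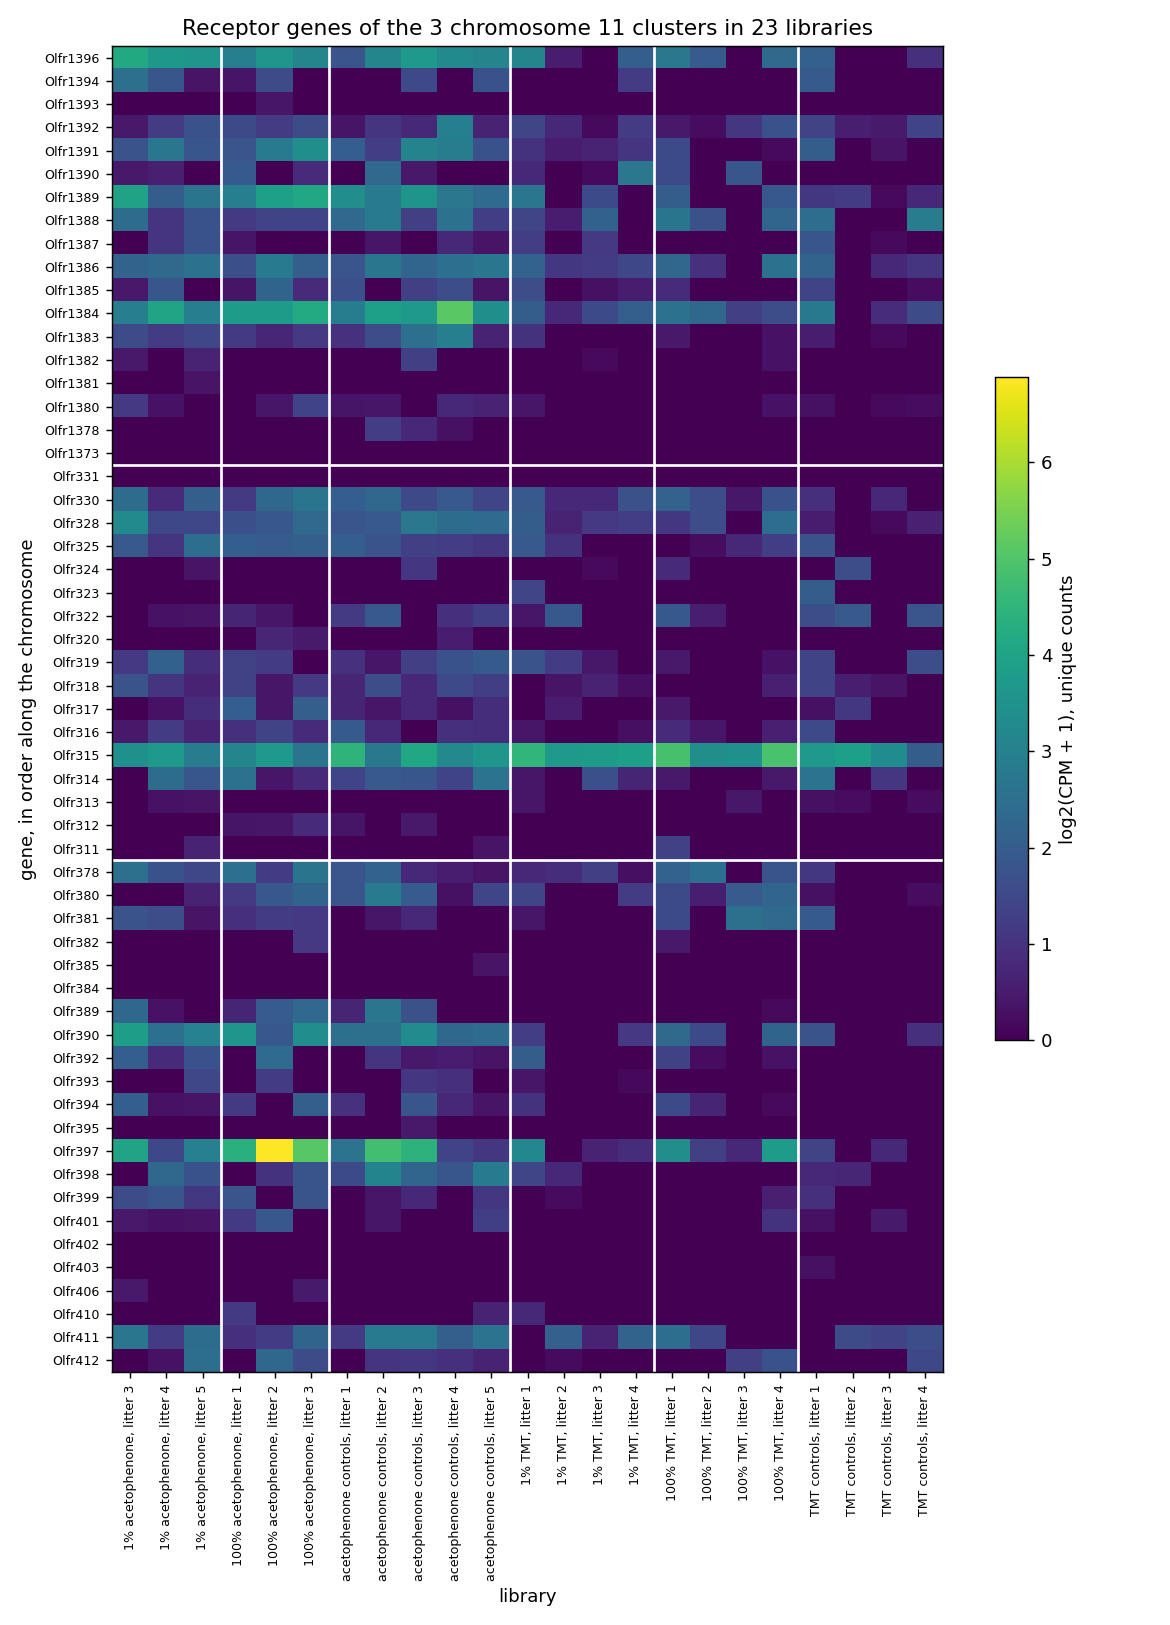
Levels of the 57 genes, log2(CPM + 1) of unique counts, with genes in order along the chromosome from top to bottom and libraries of the 6 groups from left to right; white lines part the 3 clusters and the groups. Olfr315 is visible in each of the 23 columns, while Olfr397 is brightest in the 100% acetophenone library of litter 2 (117 CPM).

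Olfr315, of family MOR278, was the steadiest of these receptors. It had 7.92, 12.3 and 5.29 CPM with 100% acetophenone in litters 1 to 3 and 9.93, 12.2 and 6.39 CPM with 1% acetophenone in litters 3 to 5, against 21.4, 5.88, 16.4, 8.40 and 11.2 CPM in the controls of litters 1 to 5. In the TMT experiment it had 28.5, 9.56, 10 and 29.1 CPM with 100% TMT and 22.0, 12.2, 12.9 and 13.9 CPM with 1% TMT, against 12.3, 13.7, 9.18 and 3.06 CPM in controls of litters 1 to 4. No library lacked it, and the groups overlapped in both experiments. The highest library had 9.5 times the level of the lowest, while the sum of the other 56 genes spanned 28.0 times and the sum of all other Olfr genes 31.5 times. Among 155 Olfr genes with a mean of at least 4 CPM, its coefficient of variation of 0.531 was the second lowest, and the median was 1.12. Only 31 of the 1102 Olfr genes had a count in each of the 23 libraries, and Olfr315 and Olfr1392 were the ones from these clusters. No other annotated gene overlaps Olfr315.

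The share of Olfr315 among receptor counts spanned a wide range. It was highest in the TMT control of litter 2, which had 1483 Olfr counts and where 83 of the 151 counts on the 57 genes were Olfr315 and it took 5.6% of Olfr counts. It was lowest in the 100% acetophenone library of litter 3, at 0.0725% of 17927 Olfr counts. Its values were 13.7 CPM in that TMT control and 5.29 CPM in that acetophenone library.

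**Figure D3:**
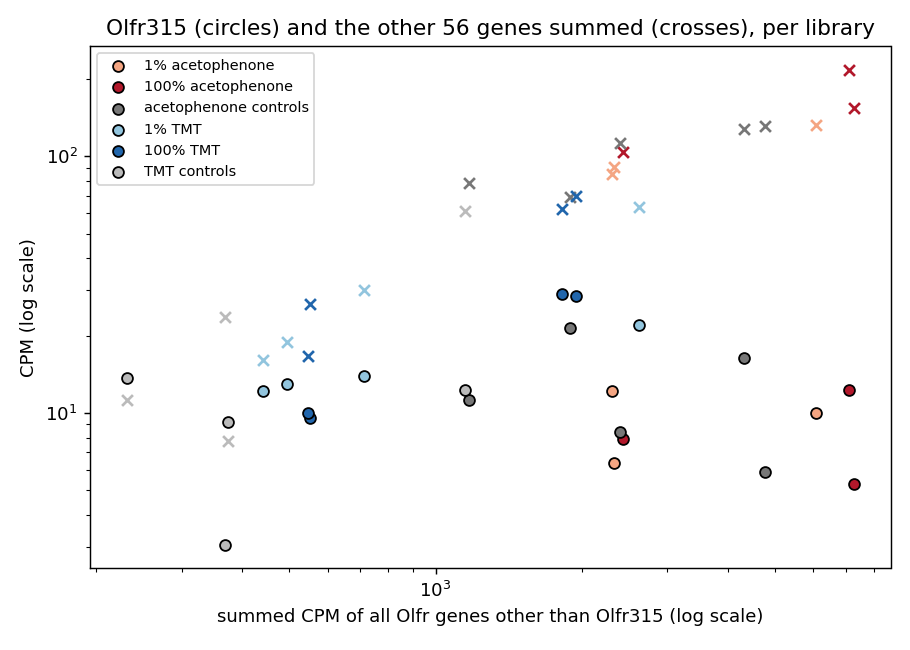
Each library appears as a circle (Olfr315) and a cross (the other 56 genes summed), in CPM on a log scale, against the summed CPM of all other Olfr genes, also on a log scale; colours give the 6 groups. Crosses run from 7.79 CPM at the lower left to 218 CPM at the upper right, while circles stay between 3.06 and 29.1 CPM over the whole axis.

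As a share of Olfr counts, the 57 genes took 4.61% (95% Wilson interval 4.17 to 5.10%), 3.23% (3 to 3.48%) and 2.20% (1.99 to 2.42%) with 100% acetophenone, against 4.74% (4.23 to 5.30%), 2.88% (2.62 to 3.17%) and 3.34% (3.03 to 3.69%) in the controls of litters 1 to 3. With 1% acetophenone the shares were 2.34, 4.20 and 4.16%, against 3.34, 5.07 and 7.65% in the controls of litters 3 to 5. Every 1% acetophenone library thus had a lower share than the control of its litter. With 100% TMT the shares were 4.97, 6.43, 4.81 and 4.95%, and with 1% TMT 3.23, 6.26, 6.26 and 6.04%, against 6.31, 10.2, 4.43 and 7.16% in controls of litters 1 to 4. At each TMT dose the share was lower than in the control in 3 of 4 litters. The intervals cover counting error only, and no test over the 57 genes was made.

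In CPM the summed level was higher with odor than in the control in 3 of 3 litters at 100% acetophenone (1.10 to 1.67 times) and in 4 of 4 at 100% TMT (1.34 to 3.42 times). It was higher in 4 of 4 litters at 1% TMT (1.14 to 1.87 times) and in 1 of 3 at 1% acetophenone (0.798 to 1.08 times). All Olfr genes summed were 1.28 to 1.68 times the control at 100% acetophenone and 1.45 to 4.93 times at 100% TMT. With 1% TMT all Olfr genes were 1.33 to 2.26 times the control, and with 1% acetophenone 0.967 to 1.98 times. All Olfr genes summed were thus higher with odor in each litter except litter 4 at 1% acetophenone. Levels of 2 marker lists stand beside these values. The 10 mature neuron genes summed to a median of 4030 CPM (range 3440 to 4550) with 100% TMT and 4150 CPM (3520 to 4290) with 1% TMT, against 2960 CPM (1970 to 4480) in controls. The 12 respiratory and secretory genes summed to 126000 CPM (91500 to 134000) with 100% TMT and 83500 CPM (72100 to 111000) with 1% TMT, against 72400 CPM (47400 to 149000). No gene of either list was at 0 in these groups, and their part in the summed receptor levels was not tested.

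The clusters differed in how their share moved. The set Olfr377 to Olfr412 took 1.5, 1.99, 1.80 and 1.70% of Olfr counts with 100% TMT, against 0.893, 1.08, 0.726 and 1.35% in controls of litters 1 to 4, so the groups did not overlap. Part of this was Olfr397. Without that gene, an alternative chosen after the data were seen, the set took 1.02, 1.73, 1.67 and 0.998% with 100% TMT, against 0.752, 1.08, 0.546 and 1.35% in controls, and the groups overlapped, with litter 4 lower with odor. At 1% TMT the same set took 0.730, 1.14, 0.524 and 0.994%, within the range of the controls in 3 of 4 libraries and below it in litter 3. With 100% acetophenone it took 1.87, 2 and 0.993%, against 1.03, 1.33 and 1.22% in the controls of litters 1 to 3. Without Olfr397 it took 1.07, 0.367 and 0.538%, against 0.769, 0.777 and 0.736%, lower with odor in 2 of 3 litters. The set Olfr311 to Olfr331, which includes Olfr315, took a lower share with odor in each litter at 100% of either odor, with 1.14, 0.384 and 0.346% at 100% acetophenone against 2.02, 0.498 and 0.750% in those controls. With 100% TMT it took 2.03, 2.62, 2.07 and 2.11%, against 2.76, 8.36, 2.98 and 2.27%, and with these values the groups overlapped. Its CPM did not fall in each litter. With 100% TMT it had 40.1, 14.7, 11.5 and 39.0 CPM, against 32.2, 20.5, 11.4 and 8.47 CPM. With 100% acetophenone it had 27.9, 27.3 and 25.2 CPM, against 38.6, 23.9 and 32.5 CPM. At 1% its share was higher with odor in acetophenone litter 4 and TMT litters 3 and 4, and lower in the other litters. The set Olfr1372 to Olfr1396 took 1.60, 0.848 and 0.859% at 100% acetophenone, against 1.68, 1.05 and 1.38% in the acetophenone controls of litters 1 to 3. With 100% TMT its shares were 1.44, 1.82, 0.935 and 1.14%, against 2.66, 0.742, 0.726 and 3.53%, higher in 2 of 4 litters and lower in the other two.

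For 100% acetophenone, 10 of the 57 genes passed the filter on low counts and 0 were called, higher or lower, at an adjusted p under 0.05 in edgeR's quasi-likelihood test; of all 11564 genes tested 0% were called. With litter as a block the count for the 57 genes was again 0, while 0.0951% of all genes were called, all of them higher. At an unadjusted p under 0.05 there were 0 of 10 genes without the block and 1 with it. The median log2 fold change of the 10 was 0.28, with 7 of 10 above 0, beside -0.01 for all genes tested and 0.38 for the 321 Olfr genes tested. A gene that passed the filter through the odor libraries alone could only be higher.

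Olfr397, a MOR135 receptor, had the largest log2 fold change of the 10 genes tested. It had 62, 350 and 82 counts (19.6, 117 and 33.3 CPM) with 100% acetophenone, against 16, 77 and 56 counts (5.10, 26.6 and 20.9 CPM) in the controls of litters 1 to 3. The odor library was the higher one in 3 of 3 litters, although the groups overlapped because levels differed between litters. The log2 fold change was 1.68 ± 0.79 (SE) without the block and 1.58 ± 0.34 with it, at adjusted p = 1 and 0.308 in edgeR (unadjusted p = 0.000929 with the block). With the block in DESeq2, a setting added after the data were seen, the adjusted p was 0.0276 and Olfr397 was the only 1 of the 57 called, where 0.337% of all genes were called (0.329% higher). Being higher in all 3 litters held for 14.8% of all genes tested and for 32.4% of the 321 Olfr genes tested.

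Among the other named genes Olfr1384 had 12.7, 12.7 and 17.5 CPM with 100% acetophenone, against 6.37, 13.8 and 12.3 CPM in controls of litters 1 to 3. Olfr1391, also of family MOR256, had 2.53, 6.33 and 9.76 CPM, against 3.19, 1.38 and 7.46 CPM. On the lower side, Olfr411, of family MOR255, had 0.95, 1.33 and 3.66 CPM, against 1.27, 6.22 and 5.97 CPM, and was lower in 3 of 3 litters, as were 13.4% of all genes tested. With the block its log2 fold change was -1.14 ± 0.76 and the adjusted p 0.897 in edgeR. Olfr315 had a log2 fold change of -0.70 ± 0.58 with the block (adjusted p = 0.897 in edgeR). None of these groups separated.

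For 1% acetophenone 11 of the 57 genes were tested and 0 were called, beside 0% of 12077 genes without the litter block in edgeR and 0.00828% with it. Unadjusted p was under 0.05 for 0 of them without the block and for 1 with it, Olfr1384. The median log2 fold change of the 11 was -0.21, with 4 of 11 above 0, against 0.01 for all genes and 0.36 for the 234 Olfr genes tested. Olfr1384 had 6.75, 15.1 and 6.68 CPM with 1% acetophenone, against 12.3, 33.6 and 9.78 CPM in the controls of litters 3 to 5. It was lower in 3 of 3 litters, as were Olfr1386, Olfr411 and 14.9% of all genes tested. It had a log2 fold change of -0.86 ± 0.30 with the block (edgeR adjusted p = 0.506). Its control of litter 4, with 144 counts, was far above the other controls. Reads shared with Olfr1372-ps1 and other copies are left out of these counts.

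Olfr1396 and Olfr390 were higher in 3 of 3 litters at 1% acetophenone, as were 16.7% of all genes tested and 26.9% of the Olfr genes tested. Olfr1396, the only MOR276 gene of the 57, had 17.1, 11.7 and 11 CPM, against 12.3, 8.63 and 7.77 CPM in the controls of litters 3 to 5, a log2 fold change of 0.49 ± 0.31 with the block (adjusted p = 0.689, edgeR). Olfr56 overlaps it on the opposite strand, and whether reads were counted by strand is not given in the sources used here. Olfr390 had 13.5, 4.68 and 7.26 CPM, against 8.95, 3.97 and 4.32 CPM (0.55 ± 0.39, edgeR adjusted p = 0.736). Olfr397 did not follow its pattern at the full dose, with 15.1, 1.82 and 6.97 CPM against 20.9, 1.63 and 1.15 CPM. Olfr398, the only MOR157 gene, had 0, 3.90 and 2.32 CPM, against 3.73, 2.57 and 6.04 CPM. The edgeR comparisons of the 2 acetophenone doses with controls share the control of litter 3.

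For 100% TMT 13 of the 57 genes were tested and 0 were called in edgeR, with 0% of all 13233 genes called without the block and 2.37% with it (1.84% higher and 0.529% lower). There were 2 of the 13, both higher, whose unadjusted p was under 0.05 in either fit. The median log2 fold change of the 13 was 1.05, with 12 of 13 above 0, beside 0.02 for all genes tested and 0.88 for the 133 Olfr genes tested. Scaled to summed Olfr counts the median of the 13 was 0.04, while that scaling moved the median of all genes to -1.15.

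Olfr380 and Olfr397, both of family MOR135, had higher CPM in 4 of 4 litters with 100% TMT. So did 14.7% of all genes tested and 24.8% of the Olfr genes tested. For Olfr397, litter 3 rests on 2 counts with odor and 5 in the control. Olfr380 had 5, 3, 8 and 29 counts (1.93, 0.486, 2.96 and 3.73 CPM) with 100% TMT, against 1, 0, 0 and 1 counts in the controls of litters 1 to 4. The measured values of the groups did not overlap. A count of 0 in the control of litter 2 allows up to 0.495 CPM, above the 0.486 CPM with odor. The order in litter 2, and with it the separation of the groups, cannot be read at this depth. Over the group that was 45 against 2 counts, a ratio of 26.9 with an exact 95% interval of 7.03 to 229 for counting error only. Olfr380 passed the count filter through odor libraries alone, so among the genes tested it could only be higher, and these values are a description. The fitted log2 fold change, 4.33 ± 1.63 with an adjusted p of 0.254 in edgeR (0.121 with the block), depends on the prior count. Its closest copy is a pseudogene, Olfr75-ps1, and only 17.2% of its estimated counts were unique. With estimated counts, which add the shared reads, the log2 fold change was 1.85 (2.88 with the block) in edgeR, and at 1% TMT 1.03, against 2.68 with unique counts. With 1% TMT it had 5, 0, 0 and 12 counts, 17 in all. The ratio to the controls was 7.14, with an exact 95% interval of 1.70 to 63.7 for counting error only.

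Olfr397 had 25, 9, 2 and 102 counts (9.63, 1.46, 0.741 and 13.1 CPM) with 100% TMT, against 7, 0, 5 and 0 counts (1.66, 0, 0.696 and 0 CPM) in controls of litters 1 to 4. In litter 3 the levels rest on 2 and 5 counts and their order cannot be read at this depth. The values of litters 1 and 4 with 100% TMT lay above all controls, and the groups overlapped. A count of 0 in the control of litter 2 allows up to 0.495 CPM and in that of litter 4 up to 0.541 CPM. The log2 fold change was 3.44 ± 1.60 without the block and 3.97 ± 1.51 with it (edgeR adjusted p = 0.338 and 0.173). In DESeq2 with the block, added after the data were seen, the adjusted p was 0.0164 and Olfr397 was again the only 1 of the 57 called, where 10.4% of all genes were called (6.94% higher). At 1% TMT it had 8.27, 0, 0.605 and 0.862 CPM.

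**Figure D4:**
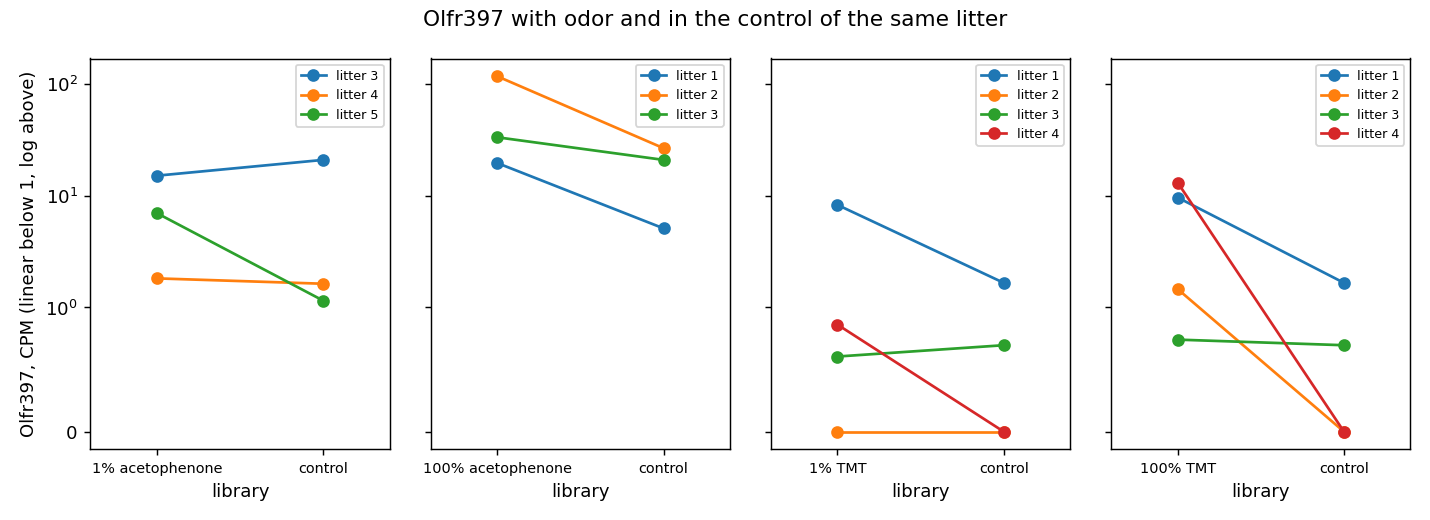
Olfr397 in CPM of unique counts, on an axis that is linear below 1 and logarithmic above, in each odor library (left) and the control of the same litter (right), with 1 line per litter and 1 panel per odor and dose. At 100% acetophenone the odor library is the higher one in each litter, by 33.3 against 20.9 CPM in the closest litter. With 100% TMT it is the higher one in litters 1, 2 and 4. In litter 3 the values of 0.741 and 0.696 CPM rest on 2 and 5 counts, and their order cannot be read.

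Olfr381, another MOR135 gene, had 1.93, 0, 4.82 and 4.12 CPM with 100% TMT, against 2.84, 0, 0 and 0 CPM in controls, and 0.345, 0, 0 and 0 CPM with 1% TMT. Its log2 fold change at 100% was 1.98 ± 1.73 without the block and 4.09 ± 1.95 with it (edgeR adjusted p = 0.646 and 0.284). At 1% TMT its single count stood against 12 counts in controls, all of litter 1. The ratio was 0.0700, with an exact 95% interval of 0.00164 to 0.473 for counting error only. That interval leaves out the spread between litters. Without the control of litter 1 the log2 fold change at 1% TMT was 1.79. Olfr322, a MOR256 gene of the Olfr311 to Olfr331 set that overlaps the snoRNA gene Gm22599, had 2.70, 0.486, 0 and 0 CPM with 100% TMT and 0.345, 2.74, 0 and 0 CPM with 1% TMT, against 2.13, 2.81, 0 and 2.52 CPM in controls. Olfr411 had 4.62, 1.78, 0 and 0 CPM with 100% TMT, against 0, 1.98, 1.67 and 2.16 CPM in controls, and its log2 fold change was 0.13 without the block and -0.19 with it. These genes were present in some litters and at 0 in others within each group.

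For 1% TMT 13 genes were tested and 0 were called in edgeR, beside 0% of 13233 genes without the block and 0.00756% with it. Unadjusted p was under 0.05 for 0 of the 13 in both fits. The median log2 fold change was 0.53 (9 of 13 above 0), against 0.02 for all genes and 0.58 for the Olfr genes tested. Olfr330, of family MOR275, was the only 1 of the 13 that was higher in 4 of 4 litters, beside 8.91% of all genes tested and 12% of the Olfr genes tested. It had 2.76, 0.720, 0.726 and 2.26 CPM, against 0.946, 0, 0.696 and 0 CPM in controls. It passed the count filter through odor libraries alone, so it could only be higher. Litter 3 rests on 6 against 5 counts, and the order there cannot be read at this depth. The 0 in the control of litter 2 allows up to 0.495 CPM and that of litter 4 up to 0.541 CPM. With the block the log2 fold change was 1.99 ± 1.38 and the adjusted p 0.828 in edgeR. The gene shares a run of 263 bases with Olfr325 and overlaps Gm12255, a processed pseudogene on the same strand. Olfr1396 had 7.92, 0.432, 0 and 3.23 CPM with 1% TMT, against 3.31, 0, 0 and 0.901 CPM. The 2 TMT doses share their 4 controls.

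**Figure D5:**
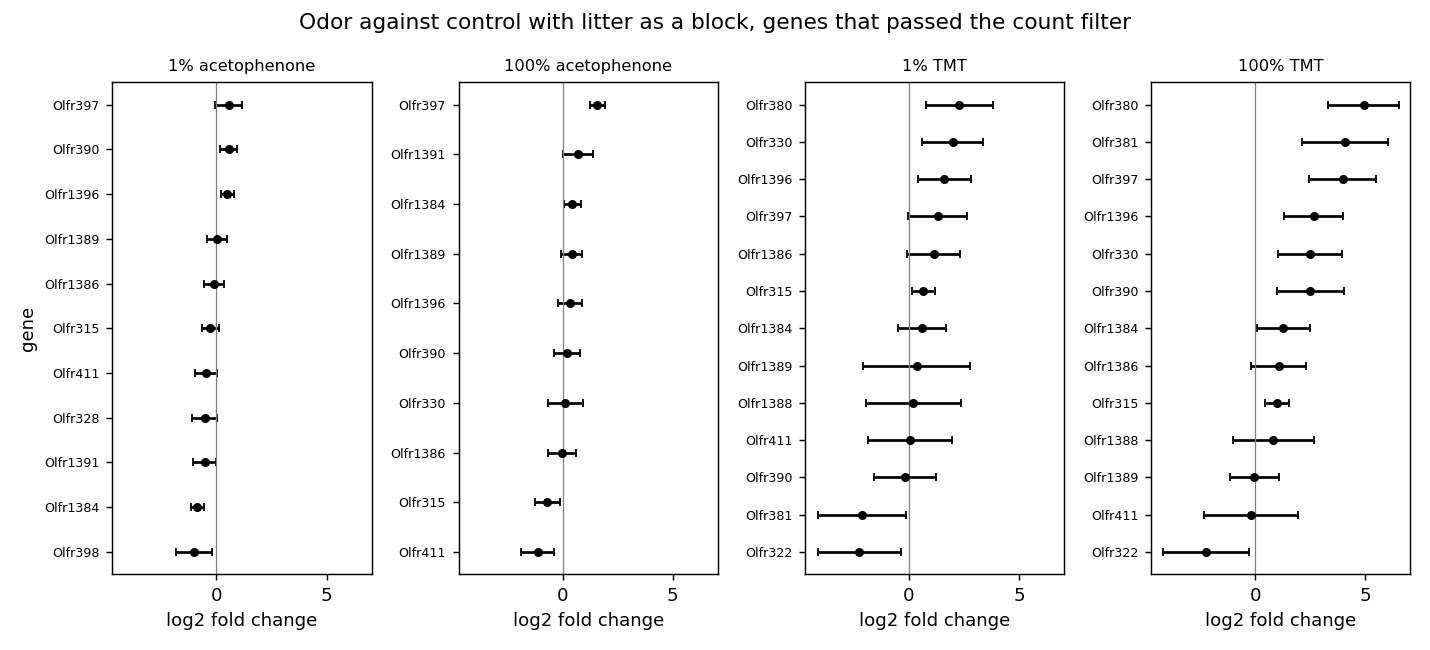
Log2 fold change of each gene that passed the count filter (odor over control, edgeR with litter as a block) with its SE as a bar, in 1 panel for each dose and odor. Olfr397 at 100% acetophenone has a narrow bar (1.58 ± 0.34), and at 100% TMT Olfr380 (4.92 ± 1.60) and Olfr381 (4.09 ± 1.95) lie farthest to the right with wide bars.

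The doses of each odor were also set against each other. Between 100% and 1% TMT 13 of the 57 genes were tested and 0 were called, as were 0% of all 13233 genes, with and without the block in edgeR. The smallest adjusted p was 0.934 without the block and 0.546 with it, both for Olfr381, with 1 gene at an unadjusted p under 0.05 in each fit. Between 100% and 1% acetophenone, fitted over all 11 libraries with litter as a block, 17 genes were tested and 0 were called, beside 0% of 12873 genes in edgeR. Olfr1384 was higher at 100% than at 1% (log2 fold change 1.32 ± 0.42, edgeR adjusted p = 0.738), and it was the only 1 at an unadjusted p under 0.05. The doses share only litter 3, so this fit also rests on the controls. Without the control of litter 4, where Olfr1384 stood at 33.6 CPM, 0 of 17 genes had an unadjusted p under 0.05 in edgeR.

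The neighbours Olfr1395 and Olfr1377 were left out by the symbol rule. Olfr1395 had 38.9, 29.6, 18.9 and 20.5 CPM with 100% TMT and 69.9, 33.4, 33.8 and 27.6 CPM with 1% TMT, against 7.57, 5.61, 2.37 and 3.06 CPM in controls (edgeR with the block, adjusted p = 0.00603 and 0.00524), and Olfr1377 had 6.02, 33.7 and 33.3 CPM with 100% acetophenone, against 4.14, 4.84 and 5.22 CPM.

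Some low genes were carried by single libraries. Of the 40 genes with at least 10 counts, 3 had over 50% of them in 1 library. Olfr1390, of family MOR256, had 52 of its 94 counts in the 1% TMT library of litter 4. Olfr324, the single MOR102 gene, had 13 of 20 counts in the TMT control of litter 2. Olfr323, the single MOR107 gene, had all of its 18 counts in litter 1 of the TMT experiment, 5 in the 1% library and 13 in the control. Unique counts were 85.9 to 100% of the estimated counts of these 3 genes.

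RefSeq windows of 250 bases before to 50 after the start (GRCm38.p6) were found for 50 genes, and in 43 of them that start lay over 1000 bases downstream of the most upstream GENCODE start, so that these windows may not hold the promoter. The letters TAATTA, the core of homeodomain sites (searched on both strands), were in 20% of the windows of these genes, against 18.6% of windows of other Olfr genes and 5.3% of all windows. A palindromic form of the Ebf (O/E) motif was in 0 of 50 windows, against 0.6% of other Olfr windows and 0.9% of all windows. A match is a description of the letters only.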

How the data were processed

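Per the submitters' processing notes, Bowtie, bedtools and the mm10 build were used; their versions, the gene annotation and strand handling are not stated. The deposited files have no header. From its values, their first value column was read as whole-number raw counts of reads with a single alignment, the main measure. The last, read as the authors' estimated counts that also hold shared-out reads with several alignments, was rounded and used as an alternative. The columns between were not used.

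Libraries were compared in edgeR 4.0.16 (R 4.3.3) with TMM, filterByExpr at a minimum count of 10, the 2-sided quasi-likelihood F test and Benjamini-Hochberg adjustment over all genes tested, at 0.05. The SE is the log2 fold change over the square root of F. For acetophenone each dose entered a fit with its same-litter controls, the TMT groups in 1 fit of 12 libraries, and the acetophenone doses over 11 libraries with litter as a block. Alternatives were the litter block, RLE, DESeq2 1.42.0, no filter, estimated counts, scaling to summed Olfr counts, libraries left out and, for TMT, only the libraries compared; DESeq2 with the block was added after the data were seen. The fits were tested on simulated data.

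Litter numbers come from the labels and pair the libraries. In deviations from group means, libraries of 1 litter correlated across genes at 0.57 to 0.888 in the acetophenone comparisons and at 0.018 to 0.341 between TMT doses and their controls. Separate litters are the replicates. Without the block, p-values are set against the spread between the libraries of a group. With the block, differences in level between litters are taken out, and p-values are set against the spread that remains. CPM are unique counts scaled to a TMM library size of 1000000. Wilson and exact intervals are at 95%, and a count of 0 allows 3 counts. All of these cover counting error only. The exact intervals pool the counts of a group and leave out the spread between litters.

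Positions, lengths and coding sequences are from GENCODE M21 (GRCm38), closest copies from blastn over 1405 Olfr sequences, MOR names (55 of 57 genes matched) and start windows from RefSeq. Named genes are the 8 highest per kb; those called; per odor and dose the 3 higher and 2 lower with the smallest p under the block; those that share reads, summarised as counts; and those at 0. The genes and lists were chosen with earlier results of these data known.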

Additional observations from a re-analysis of the deposited data

Results flagged for a closer look

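Among 72 sets of 4 or 5 libraries, 12 (16.7%) had a library far from the others of its group by Dixon's gap. The sets were 15 named genes, the summed level and 2 shares of Olfr counts, in the 4 groups of that size. The critical values allow about 5% for normally distributed values, while many of these sets are low counts with zeros. A set with a single library above 0 is always flagged, such as Olfr381 at 1% TMT (0.345 CPM). The 16.7% therefore cannot be set against 5%. The sets are not independent.

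Olfr1384 stood at 33.6 CPM in the acetophenone control of litter 4, against 6.37 to 13.8 CPM in the other controls. Olfr390 was at 8.95 CPM in the acetophenone control of litter 3, against 3.97 to 4.84 CPM. In the TMT experiment litter 1 was the outlying one in several genes. Olfr1391 was at 1.93 CPM in the 100% library and 3.07 CPM in the control of litter 1, with at most 0.129 and 0.278 CPM in the other litters. Olfr381 was at 0.345 CPM at 1% and 2.84 CPM in the control of litter 1, and at 0 in the other litters. Olfr378 was at 1.18 CPM in the control of litter 1 and at 0 in the others. Olfr397 was at 8.27 CPM and Olfr315 at 22.0 CPM in the 1% library of litter 1, against 0 to 0.862 CPM and 12.2 to 13.9 CPM in the other 1% libraries. Olfr322 was at 2.74 CPM in the 1% library of litter 2, against 0 to 0.345 CPM.

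As a share of Olfr counts, the 57 genes took 3.23% in the 1% TMT library of litter 1, against 6.04 to 6.26% in the other 1% libraries, and 6.43% in the 100% TMT library of litter 2, against 4.81 to 4.97%. Litter 1 of the TMT experiment also had the highest number of Olfr genes detected in controls (344) and at 1% (636). Its library codes differ from those of litters 2 to 4; the part of this in these gaps was not tested.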

How the results depend on the processing

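The count of called genes among the 57 was 0 in each of the 6 comparisons and stayed 0 in the edgeR fits with the other settings and with libraries left out, and in DESeq2 without the block. It was 1 with the litter block in DESeq2 for 100% acetophenone and 1 for 100% TMT, both times Olfr397. With Olfr1377 and Olfr1395 counted in, and the block, it was 1 for 100% TMT and 1 for 1% TMT. The replicate block in edgeR gave 0 calls in each comparison. Leaving out libraries moved the log2 fold change of Olfr397 between 0.61 (without the odor library of litter 2) and 2.07 at 100% acetophenone and between 2.76 and 4.61 at 100% TMT. With the block and 1 litter left out it lay between 2.54 and 5.51 at 100% TMT.

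Several signs turned. At 100% TMT, 4 of 12 named genes changed sign when scaled to summed Olfr counts, which moved the median of all genes by -1.15: Olfr315 was at -0.59 (1.05 unscaled), Olfr1386 at -0.24 (0.94), Olfr1389 at -1.31 (0.82) and Olfr411 at -1.66 (0.13). At 1% TMT there were also 4 of 12, Olfr1389 with the widest change (-0.50, 1.11 unscaled). Scaled to summed Olfr counts, which moved the median of all genes by -0.49 at 100% and -0.55 at 1% acetophenone, log2 fold changes were -0.15 for Olfr1391 at 100%, -0.042 for Olfr1396 and -0.079 for Olfr397 at 1%, and, with the block, -0.12 for Olfr1384 at 100%. For Olfr397 at 1% acetophenone, leaving out libraries gave -0.80 to 2.51, and -0.27 with the block without litter 5. For Olfr411 at 100% TMT, 0.13 became -0.19 with the replicate block, -0.021 with estimated counts, -0.53 with both, -1.66 scaled to Olfr counts, -1.19 with that and the block, -0.37 in DESeq2 with the block, -1.10 with the block in the 8 libraries, -2.81 with the block without litter 1, and -1.24 to 0.538 without single libraries. For Olfr381 at 1% TMT leaving out libraries gave -5.08 to 1.79, the last without the control of litter 1; the causes were not tested.

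Estimated counts put 4.60% of Olfr counts on the 57 genes at 100% acetophenone, 5.93% at 1% and 8.21% in all 5 controls (4.57 to 8% in litters 1 to 3 and 8 to 11.7% in litters 3 to 5), and 6.85% at 100% TMT and 7.68% at 1% TMT, against 9.07% in TMT controls. Few counts per gene limit these comparisons: 40 to 47 of the 57 did not pass the filter.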
